A study of Mus musculus with 2 samples.

Results

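The cells described here were dendritic cells of mouse kidney that carried the genes Cd209a, Clec10a or Ccl17, in 1 control library and 1 library from folic acid (FA) nephropathy, an injury of the kidney tubules. Both libraries came from kidney labelled wild type. The labels give no animal number, age, strain, dose or time. Each library is 1 sample, so no replicate check was possible and no test was run. Every difference is between these 2 libraries, and every 95% interval covers counting error only. Unique molecular identifiers (UMIs) count captured RNA molecules.

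Cells were selected on measured values. A barcode with at least 500 UMIs, 200 genes and a mitochondrial share of at most 50% was chosen when Cd209a, Clec10a and Ccl17 together had at least 3 UMIs and the MHC class II genes H2-Aa, H2-Ab1 and H2-Eb1 at least 20. It also had fewer than 5 UMIs of the complement genes C1qa, C1qb and C1qc, no UMI of Xcr1 or Clec9a, at most 1 of Fscn1 and fewer than 2 of Mki67 and Top2a. These limits left out macrophages, type 1 dendritic cells, mature dendritic cells and dividing cells. The rule found 69 of 6295 kept barcodes in control and 276 of 15922 in FA, 345 of 22217 in all. The levels of the selecting genes describe the rule and are not a result.

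Type 2 conventional dendritic cells (cDC2) take up antigen, load it on MHC class II and present it to CD4 T cells. Cd209a and Clec10a are C-type lectins, receptors that bind sugars. Ccl17 is a chemokine that attracts cells bearing its receptor CCR4, and Ffar2 is a receptor for short-chain fatty acids. Dendritic cells depend on the receptor Flt3 and carry the transcription factor Zbtb46, while Irf4 acts in the type 2 lineage and high Irf8 marks the type 1 lineage. On mm10, Cd209a lies at chr8:3743395-3748984, Clec10a at chr11:70166623-70170836, Ccl17 at chr8:94809380-94812038 and Ffar2 at chr7:30818031-30823775, from the RefSeq table of GRCm38.p6.

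Promoter windows are shown for Ccl17, the selecting gene found in few control cells, and for Isg15 and Cxcl10, a pair of interferon-inducible genes that were higher in FA cells. Each run is the 250 bases before a RefSeq start site on GRCm38.p6, 5′ to 3′ on the gene's strand. They span chr8:94810203-94810452 (plus strand, within the Ccl17 gene), chr4:156200819-156201068 (minus strand, Isg15) and chr5:92348890-92349139 (minus strand, Cxcl10). Capitals mark matches, on either strand and with overlaps allowed, to 4 motifs. These were GGG, any 5 bases, CC for NF-kB; TTC, any 4 bases, GAA for STAT6; GAAA, any 2 bases, GAAA for the interferon-stimulated response element (ISRE); and GAGGAAG for PU.1.
Ccl17: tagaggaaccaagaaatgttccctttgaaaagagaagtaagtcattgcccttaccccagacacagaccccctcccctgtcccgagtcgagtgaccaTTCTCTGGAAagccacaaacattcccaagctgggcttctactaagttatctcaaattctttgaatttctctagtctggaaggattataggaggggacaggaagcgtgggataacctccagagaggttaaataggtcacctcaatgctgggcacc
Isg15: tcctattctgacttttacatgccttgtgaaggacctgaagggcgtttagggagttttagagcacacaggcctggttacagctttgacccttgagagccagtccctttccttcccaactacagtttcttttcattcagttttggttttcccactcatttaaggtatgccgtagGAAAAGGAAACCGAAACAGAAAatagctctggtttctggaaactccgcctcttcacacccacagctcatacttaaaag
Cxcl10: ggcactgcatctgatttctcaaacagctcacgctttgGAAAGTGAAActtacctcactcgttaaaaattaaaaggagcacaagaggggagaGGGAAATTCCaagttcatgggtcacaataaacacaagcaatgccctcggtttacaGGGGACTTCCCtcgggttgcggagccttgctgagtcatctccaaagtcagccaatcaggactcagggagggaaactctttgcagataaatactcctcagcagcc
The Ccl17 window held 1 STAT6 match, which began 154 bases before the start. Isg15 held 3 overlapping ISRE matches, which began 78, 72 and 66 bases before the start. Cxcl10 held 1 ISRE match at 213 bases and 4 NF-kB matches, of which 3 overlapped. Of 32851 windows of this length, 5.85% held the STAT6 motif, 2.98% the ISRE, 10.6% the PU.1 motif and 45.8% the NF-kB motif. A match describes letters and is no evidence of binding. The Cd209a window held no match to the 4 motifs. Of 8 genes looked up, 6 had a window; Clec10a and Ciita had none.

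The selected cells were deeper than most barcodes. They held 645732 UMIs in control, with a median of 8883 per cell, and 2224695 in FA, with a median of 7566. All kept barcodes had medians of 5129 and 3363 UMIs. The median mitochondrial share of the selected cells was 0.354% in control and 0.70% in FA, but 8 of 69 control cells and 1 of 276 FA cells were above 20%. Xist, expressed from an inactive X, had 0 UMIs in the selected control cells and 1663 in FA cells, while the Y-linked Ddx3y had 61 UMIs in control and 0 in FA. FA treatment, sex of the animals and library cannot be told apart. The libraries shared 54 barcode sequences, and 2 selected cells carried one of them.

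By this rule the cells were 1.10% of kept barcodes in control (exact Clopper-Pearson interval 0.854 to 1.39%) and 1.73% in FA (1.54 to 1.95%). Among barcodes with at least 20 MHC class II UMIs, they were 69 of 1121 in control, or 6.16% (4.82 to 7.73%), and 276 of 1757 in FA, or 15.7% (14.04 to 17.5%). Among barcodes with a UMI of the leukocyte gene Ptprc, the shares were 3.65% in control (2.85 to 4.60%) and 3.45% in FA (3.06 to 3.88%), with overlapping intervals. The rule counts UMIs, so every barcode was also thinned to 1000 UMIs, which left 18 of 6060 control and 54 of 14018 FA barcodes within the rule. The thinned shares, 0.297% (0.176 to 0.469%) and 0.385% (0.290 to 0.502%), had overlapping intervals. With Ccl17 not counted, the thinned shares were 0.297% in control and 0.243% in FA, the other direction, again with overlapping intervals. With at least 3 UMIs of Cd209a alone, the shares were 0.985% in control and 0.936% in FA. A share of barcodes also moves with the number of tubule cells recovered, and that part was not tested.

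The limit of 3 UMIs fell in a sparse range in control and in a filled range in FA. Of control barcodes that met every other limit, 7 had 1 UMI of the selecting genes, 6 had 2, 4 had 3 and 63 had 5 or more. In FA, 117 had 1, 76 had 2, 54 had 3 and 185 had 5 or more. Expression is given as CPM, the count per 1e+06 of the UMIs summed over the cells of a library. Barcodes just inside the limit, at 3 UMIs, had 472 CPM of the lectin Mgl2 in control and 128 in FA, and barcodes just outside, at 2 UMIs, had 426 and 191. Ciita, the master regulator of MHC class II genes, stood at 519 and 452 CPM inside the limit and at 125 and 387 outside. The control values rest on 4 cells inside and 6 outside, and so on few UMIs. Of the 4 cells inside, 1 held 9 Mgl2 UMIs and the others 1 or 0.

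The 3 selecting genes were combined differently in the 2 libraries. In control, 57 of 69 cells carried Cd209a and Clec10a without Ccl17, 6 carried Cd209a alone and 3 Clec10a alone. In FA, 114 of 276 carried Cd209a and Clec10a without Ccl17, 56 Cd209a alone, 33 Clec10a alone, 29 Clec10a with Ccl17, 25 all 3 genes and 12 Ccl17 alone. Ccl17 was found in 3 control cells, with 10 UMIs of which 80% lay in 1 cell, and in 73 FA cells, with 1157 UMIs. Cd209a stood at 1220 CPM in control and 479 in FA, and Clec10a at 466 and 395 CPM. Without Ccl17 in the rule, an alternative added after the data were seen, 69 control and 252 FA cells were selected. Of all UMIs in kept FA barcodes, 74.7% for Cd209a, 72.7% for Ccl17 and 53.2% for Clec10a lay in the selected cells. In control these shares were 65.6%, 33.3% and 58.1%. The rule asked for UMIs of these genes, so the shares describe the rule and do not show how specific the genes are. For Ffar2 and Mgl2, which the rule did not use, the FA shares were 28.5% and 11.7%.

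**Figure D1:**
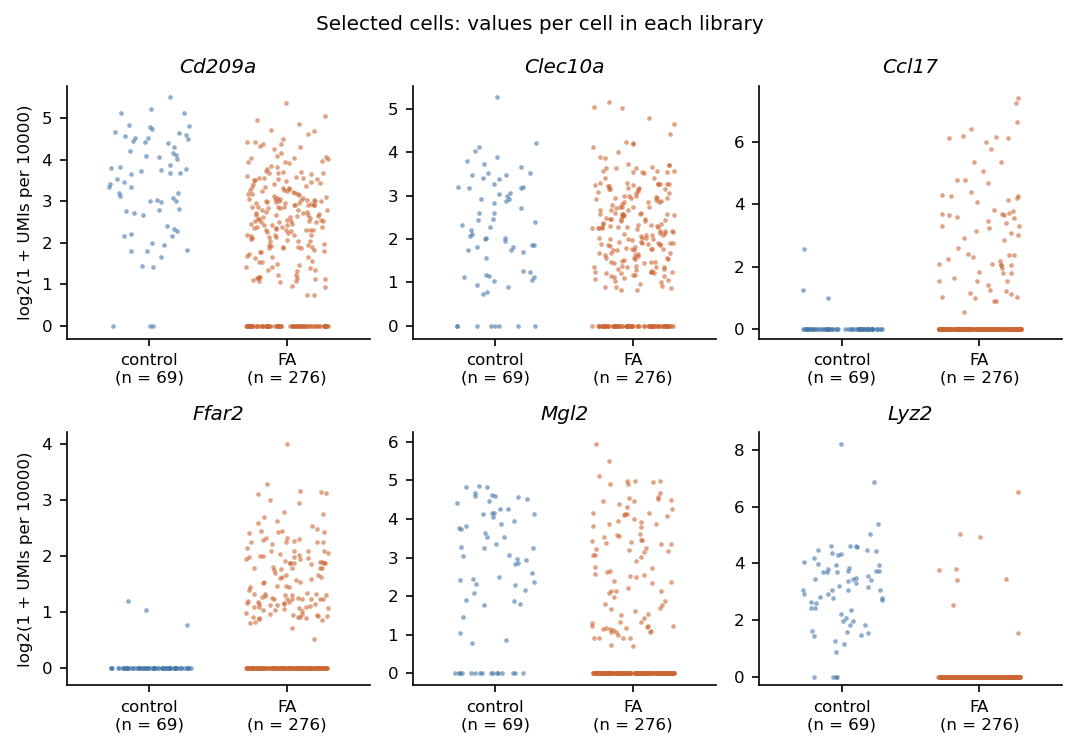
Each point is 1 selected cell, 69 in control and 276 in FA, and the vertical axis is log2 of 1 plus the gene's UMIs scaled to one total for every cell. Ccl17 and Ffar2 sit at 0 in all but 3 control cells each and Lyz2 at 0 in all but 9 FA cells, while Cd209a and Clec10a, which helped select the cells, are present in both libraries.

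The fourth label marker, Ffar2, was not part of the rule, and it did not mark the control cells. It had 3 UMIs in 3 of 69 control cells (4.65 CPM) and 274 UMIs in 133 of 276 FA cells (123 CPM), a ratio of 26.5 (8.98 to 129). Thinned to 1000 UMIs, 0% of control and 8.33% of FA cells had a Ffar2 UMI, against 0% of gated B cells in both libraries. Those B cells, which should lack the gene, had unthinned median depths of 2847 and 2170 UMIs. Cd209a itself was found in 66 of 69 control and 202 of 276 FA cells.

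Several lineage genes that the rule did not use differed between these cells and the C1q macrophages, barcodes with at least 15 C1q UMIs. Flt3 was at 71.2 CPM in control and 40.01 in FA, against 6.98 and 1.38 in the macrophages. Zbtb46 was at 38.7 and 52.6 CPM, against 2.93 and 1.38 in the macrophages, but endothelial cells had 52.3 and 47.3 CPM. The kynurenine pathway enzyme Kmo stood at 110.0 CPM in control and 159 in FA, against 8.78 and 5.25 in the macrophages. The integrin Itgax, at 147 and 246 CPM, was close to the 129 CPM of the macrophages in control, and they had 93.7 CPM in FA. Irf8 was at 108 and 73.3 CPM, with 41.4% of control UMIs in 1 cell. That was far below its 2259 and 2120 CPM in gated type 1 dendritic cells, which numbered 11 and 9. Irf8 was also higher in C1q macrophages, at 382 and 230 CPM, and in Ly6c2 monocytes, at 721 and 292. A list gene was counted as measured with UMIs in both libraries and a mean of at least 20 CPM. Over all 5545 measured genes, 9.14% passed 2-fold towards FA and 7.23% towards control. Each list count below stands beside these shares. Of 15 measured lineage genes of conventional dendritic cells, 1 was at least 2-fold higher, the regulator Id2 (263 and 566 CPM), and 2 were at least 2-fold lower. The wider list of type 2 markers separated the cells less: its sum was 4404 CPM in control and 3556 in FA, against 2817 and 3045 in C1q macrophages and 3715 and 3284 in Ly6c2 monocytes. The lower lineage genes were Irf4, at 101 and 48.5 CPM, and the surface receptor Slamf7, at 395 and 162 CPM.

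Markers of macrophages and monocytes did not move together in these cells. Macrophage genes tended to be lower in FA: of 9 measured, 1 was at least 2-fold higher and 3 lower, with a median log2 ratio of -0.77 against 0.11 over all 5545 genes. The lower members were Apoe, Cd81 and Mrc1. Apoe was found in 17.4% of control and 1.09% of FA cells, and in 38.9% and 27.4% of B cells. Its level here is therefore not read as expression. The mannose receptor gene Mrc1 was at 72.8 CPM in control and 9.89 in FA, and Adgre1, which encodes the F4/80 antigen and was too low to be counted as measured, had 22 UMIs in control and 4 in FA. Of the macrophage list, Folr2 was at 0 UMIs in both libraries, while Ms4a7 and Trem2 were at 0 in control and at 5 UMIs each in FA. The summed macrophage list stood at 1096 and 741 CPM, against 11400 and 11087 CPM in C1q macrophages. Monocyte genes went the other way: of 12 measured, 5 were at least 2-fold higher and 1 lower, with a median log2 ratio of 0.86. Plac8 was at 181 CPM in control and 750 in FA, found in 18.8% and 72.5% of cells, with 38.5% of control UMIs in 1 cell. The Fc receptor Fcgr1 was at 20.1 and 87.7 CPM, found in 13.04% and 41.3% of cells, and Ly6c2 at 21.7 and 54.8 CPM. The defining monocyte genes Chil3 and Vcan had 0 UMIs in control and 4 and 1 in FA, and the summed monocyte list stood at 3409 and 3096 CPM against 45744 and 35511 CPM in Ly6c2 monocytes, sums that include Lyz2.

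The 1 lower monocyte gene was Lyz2, which encodes lysozyme. It had 903 UMIs in 65 of 69 control cells, with a median of 7 per cell, and 182 UMIs in 9 of 276 FA cells, of which the highest cell held 41.2%. In Ly6c2 monocytes Lyz2 stood at 32866 CPM in control and 18245 in FA. The type 1 dendritic cells, 11 in control and 9 in FA, had 121 and 0 UMIs of it. In C1q macrophages it was at 2426 and 3259 CPM and in B cells at 0 and 226. Nearly every selected control cell thus held Lyz2 and nearly every selected FA cell had 0 UMIs of it. The type 1 dendritic cells went the same way. Other abundant transcripts of the FA library were also missing: S100a8 and S100a9 had 25780 and 42971 UMIs in all FA barcodes and 0 in the 276 selected cells, which in the counts as deposited allows up to 1.09% of cells with a UMI. Spp1, in contrast, was found in 52.2% of selected FA cells and in 79.2% of FA B cells, and Gpx3 in 23.6% and 52.2%. No label says whether free RNA was removed from the counts before deposit, and its part in the Lyz2 difference was not tested.

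Across all genes with UMIs in both libraries and a mean of at least 50 CPM, 264 of 2734 (9.66%) passed 2-fold towards FA and 123 (4.50%) towards control. The median log2 ratio of these genes was 0.20. Ratios, intervals and 2-fold calls are not adjusted for that shift unless stated. With mitochondrial and ribosomal protein genes left out of the total the counts were 241 and 228, and with the median ratio set to 1 they were 166 and 163. The share of called genes that were higher was thus 68.2% as reported and 51.4% and 50.5% under those scalings.

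Among genes that the naming rule admits, the 12 highest ratios were led by Ifitm1, which encodes an interferon-induced membrane protein that restricts virus entry. Ifitm1 had 0 UMIs in the 69 control cells and 1820 UMIs in 65.9% of the FA cells (818 CPM), at least 176-fold higher against a floor of 3 UMIs in control. Basp1, a membrane-bound signalling protein, was at 41.8 CPM in control and 560 in FA, a ratio of 13.4 (9.15 to 20.4). Gpr171, an orphan-family receptor, was at 26.3 and 280 CPM, although 52.9% of its control UMIs lay in 1 cell. The lectin Clec4n, which encodes Dectin-2, was at 20.1 CPM in control and 182 in FA and was found in 8.70% and 43.8% of cells. The survival gene Bcl2a1b was at 43.4 and 408 CPM, but its near-identical copies make the count of each copy uncertain. The glycolytic enzyme gene Pfkp was at 34.1 and 298 CPM, and Cfp, which encodes properdin of the complement system, at 156 and 762 CPM. The rule left out Spp1, far more abundant in another class, Ifi205 (1.55 and 104 CPM), whose mean was below its limit, and AA467197 (29.4 and 769 CPM), for its accession-style name. The remaining genes of the 12 were Arid5a, Dusp5, Plscr1, Ifrd1 and Ifi207, with log2 ratios from 2.30 for Ifi207 to 2.89 for Arid5a. Arid5a, Ifrd1 and Ifi207 were at least 2-fold higher in FA in 6 of 6 other classes with at least 50 cells per library, Ifitm1, Basp1, Cfp and Dusp5 in 5 and Plscr1 in 2. The 6 classes were C1q macrophages, B cells, T cells, proximal tubule cells, endothelial cells and podocytes. Ly6c2 monocytes (23 control cells) and the other dendritic cells were too few to enter.

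The 12 lowest ratios under the same rule included a pair that rested on single barcodes. All 238 control UMIs of the water channel gene Aqp1 and 97.5% of the 157 control UMIs of the salt transporter gene Slc12a3 lay in 1 cell each. Hpgd, the enzyme that breaks down prostaglandins, was spread over 72.5% of control cells and 7.61% of FA cells, at 361 and 16.6 CPM, a 21.7-fold lower level in FA. The C-type lectin Clec4b1 was at 364 CPM in control and 71.5 in FA, found in 91.3% and 29.3% of cells. Transferrin, encoded by Trf, was at 221 and 34.6 CPM. The inhibitory Fc receptor gene Fcgr2b was at 290 and 86.8 CPM, and the leukotriene receptor gene Ltb4r1 at 161 and 50.3 CPM. The lysosomal gene Psap was at 1491 CPM in control and 483 in FA, with UMIs in 100% and 84.4% of cells. Ramp1, Lmo4, Zbtb20 and Git2 completed the 12, with log2 ratios from -1.82 for Ramp1 to -1.52 for Git2. Without the barcode richest in the gene in each library, the log2 ratio of Slc12a3 went from -7.49 to -2.23, and Aqp1 was left at or under the floor in both libraries. Fcgr2b, Trf, Lmo4 and Ltb4r1 were at least 2-fold lower in 0 of the 6 other classes, and Hpgd in 2. A gene near 0 in a class also counts as not lower there, and monocytes and other dendritic cells were not among the classes. These counts therefore do not show a difference particular to the selected cells.

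Interferon-stimulated genes formed the list with the largest number of members higher in FA, a number that also depends on list length. Of 25 measured, 15 were at least 2-fold higher and 0 lower, with a median log2 ratio of 1.30 against 0.11 over all measured genes (2 of the 25 were at 0 UMIs in control and entered at their bound). Isg15, a ubiquitin-like protein, was at 83.6 CPM in control and 403 in FA, found in 31.9% and 68.5% of cells, a ratio of 4.82 (3.66 to 6.47). Cxcl10, a chemokine for CXCR3-bearing T cells, was at 124 and 595 CPM, with 35.0% of its control UMIs in 1 cell. Ifit2 was at 17.03 and 160 CPM. Irf7, the transcription factor that amplifies interferon production, was at 71.2 and 176 CPM, with 41.3% of control UMIs in 1 cell, and the abundant Ifitm3 at 1792 and 3222 CPM. Other members were close between libraries: Irgm1 was at 55.8 CPM in control and 44.1 in FA, Ifi47 at 38.7 in both, and Gbp2 at 20.1 and 21.6. The difference was not confined to the selected cells: in C1q macrophages the median log2 ratio of 28 measured members was 1.35.

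Chemokines other than Ccl17 were led by Ccl4, an inflammatory chemokine. It was at 1061 CPM in control and 3658 in FA, found in 53.6% and 74.3% of cells, a ratio of 3.45 (3.19 to 3.73). Ccl3, its neighbour in the genome, was at 536 and 474 CPM. Cxcl2, a neutrophil attractant, was at 55.8 and 397 CPM, in 2 control cells and in 14.1% of FA cells, and in 6.56% of FA B cells. Ccl6 was lower, at 259 and 110.1 CPM. Of 12 measured chemokines 6 were at least 2-fold higher and 1 lower, beside 9.14% and 7.23% of all genes. The list's median depended on how the rule counted Ccl17 and Cd209a: the median log2 ratio less that of all genes was 1.11, and it was 0.16 when Ccl17 was not counted by the rule and -0.080 when each cell also had to carry Cd209a. Ccl4 itself was at 2434 CPM in FA cells with a Ccl17 UMI and 4134 in those without. Ccl5 and Cxcl9 rested on few cells, with 35.4% and 42.7% of FA UMIs in 1 cell.

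Among cytokines, Il1b was the most abundant. It was at 1498 CPM in control and 2875 in FA, found in 68.1% and 85.1% of cells, a ratio of 1.92 (1.79 to 2.06). Osm, an IL-6 family cytokine, had 4 UMIs in 3 of 69 control cells and 280 UMIs in 35.1% of FA cells, a ratio of 20.3 (7.85 to 75.1). Tnf was at 77.4 and 83.6 CPM, with an interval of the ratio from 0.786 to 1.51. Il18 and Ebi3, which encodes a subunit of IL-27, were lower, at 34.1 and 12.6 CPM and at 46.5 and 18.9 CPM. Of 6 measured cytokines, Osm was the 1 at least 2-fold higher.

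Of 20 measured cytokine receptors, 2 were higher in FA by at least 2-fold and 1 lower, near the 9.14% and 7.23% of all genes. Il4ra, the receptor chain for IL-4 and IL-13, was at 35.6 CPM in control and 150 in FA, a ratio of 4.20 (2.75 to 6.72). Il1r2, a decoy receptor for IL-1, was at 17.03 and 118 CPM. Tgfbr1, a TGF-beta receptor, was lower at 91.4 and 40.9 CPM. Csf2ra, the GM-CSF receptor chain, was at 274 and 257 CPM, and Ifnar1 and Ifnar2, the chains of the type I interferon receptor, were at 77.4 and 69.7 CPM and at 88.3 and 84.1 CPM, with intervals that included 1.

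Receptors of migration differed by member. Ccr2, the receptor that takes monocytes and dendritic cells out of the marrow, was at 606 CPM in control and 453 in FA. P2ry10, a lysophospholipid receptor, was at 9.29 and 71.9 CPM, found in 7.25% and 35.1% of cells. Ccr7, which guides mature dendritic cells to lymph nodes, had 2 UMIs in control and 79 in FA, of which 46.8% lay in 1 cell, and was found in 6.16% of FA cells.

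Genes of the MHC class II pathway were mostly close between libraries in these cells, while several of them, led by Cd74 and Ciita, were far lower in FA in C1q macrophages. Cd74, the invariant chain, was at 33102 CPM in control and 23763 in FA, a ratio of 0.718 (0.707 to 0.729). In C1q macrophages Cd74 was at 45187 and 5079 CPM. Ciita was at 350.0 CPM in control and 388 in FA in the selected cells, with an interval of the ratio from 0.956 to 1.29, and at 241 and 26.2 CPM in C1q macrophages. In B cells Cd74 was at 7047 and 6127 CPM and Ciita at 96.9 and 91.9. In the 11 and 9 type 1 dendritic cells Cd74 was at 24731 and 15266 CPM and Ciita at 411 and 255. In Ly6c2 monocytes they were at 5853 and 2681 CPM and at 64.4 and 35.3. Levels close between libraries were thus not particular to the selected cells. The peptide exchange genes H2-DMa and H2-DMb1 were at 937 and 974 CPM and at 811 and 871 CPM in the selected cells. The median log2 ratio of 14 measured members other than the selecting genes was 0.15. Of these, 3 were at least 2-fold higher and 0 lower, beside 9.14% and 7.23% of all genes. Those 3 were H2-DMb2, at 146 and 308 CPM, the thiol reductase Ifi30, at 830.1 and 1897 CPM, and the protease Ctsz, at 290 and 705 CPM. In C1q macrophages the median log2 ratio of 12 measured members was -0.23, so the list as a whole was less apart than those genes, and the difference between the classes was not tested. The selected cells had to carry at least 20 UMIs of H2-Aa, H2-Ab1 and H2-Eb1 in both libraries and the macrophages did not, and the cells within the C1q gate may differ between libraries; the part of either was not tested.

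**Figure D2:**
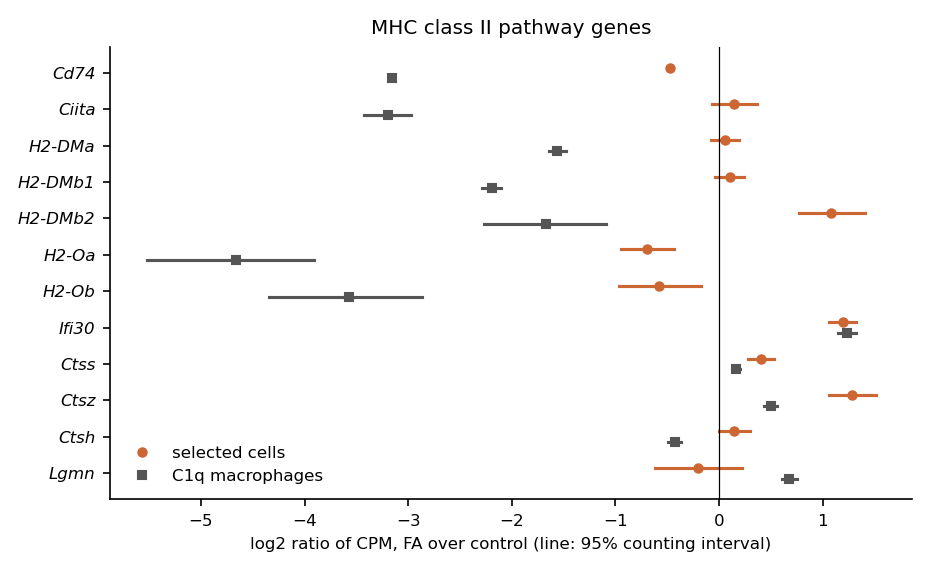
Log2 ratio of CPM, FA over control, for MHC class II pathway genes not used by the rule, in the selected cells (orange circles) and in C1q macrophages (grey squares), with 95% counting intervals. Ciita, H2-DMa and H2-DMb1 lie near 0 in the selected cells, Cd74, H2-Oa and H2-Ob somewhat below it, and all of these lie further below 0 in the macrophages.

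MHC class I genes and costimulators were mostly level or higher. Of 17 measured MHC class I pathway genes, 1 was at least 2-fold higher, H2-Q7 (51.1 and 162 CPM), which shares sequence with other H2-Q genes and is uncertain, and 0 were lower. H2-D1 was at 1552 and 1573 CPM and B2m at 1188 and 1473. Of 14 measured costimulation and checkpoint genes, 3 were at least 2-fold higher and 0 lower, beside 9.14% and 7.23% of all genes. Cd86, a ligand of CD28, was at 77.4 CPM in control and 173 in FA, found in 36.2% and 61.2% of cells, a ratio of 2.23 (1.66 to 3.06). Cd80 was at 9.29 and 32.4 CPM. Cd274, which encodes PD-L1, had 2 UMIs in control and 93 in FA, in 19.2% of FA cells. Cd83 was at 257 and 411 CPM, Cd40 at 18.6 and 27.4, and Icam1 at 180 and 122.

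C-type lectins and pattern receptors split in both directions. Of 16 measured, 7 were at least 2-fold higher and 5 lower, beside 9.14% and 7.23% of all genes. Besides Clec4b1 and Mrc1, the lower members were Mgl2 (801 and 392 CPM), Clec12a (245 and 105 CPM) and Clec4a1 (83.6 and 38.7 CPM). Cd209d, a relative of Cd209a too low to be counted as measured, had 19 and 14 UMIs. The Mgl2 call depended on cells near the limit of the rule: with at least 5 UMIs of the selecting genes it stood at 828 and 521 CPM, under 2-fold. Mgl2 was found in 76.8% of control and 36.6% of FA cells, and it is a close copy of Clec10a, so reads may be shared between them. The higher members besides Clec4n included Clec7a, which encodes the beta-glucan receptor Dectin-1 (150 and 373 CPM), Cd14, the co-receptor for endotoxin (44.9 and 129 CPM), Ifih1, the RNA sensor MDA5 (29.4 and 107 CPM), and the adaptor gene Myd88 (37.2 and 138 CPM). Tlr2 was at 83.6 and 63.8 CPM.

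NF-kB family members and targets were higher in part. Of 21 measured, 8 were at least 2-fold higher and 1 lower, beside 9.14% and 7.23% of all genes. The median log2 ratio was 0.60. Rel, the c-Rel subunit, was at 189 CPM in control and 423 in FA, and Traf1 at 235 and 578 CPM. Rela, at 49.6 and 53.0 CPM, and Nfkb1, at 262 and 288 CPM, had intervals that included 1. The lower member was Tnip3, an inhibitor of NF-kB signalling, at 1101 and 532 CPM, and without the barcode richest in it in each library its log2 ratio went from -1.05 to -0.96, under 2-fold. In C1q macrophages Tnip3 was the other way, at 76.8 and 331 CPM, and in Ly6c2 monocytes too, at 6.44 and 102. The few type 1 dendritic cells went with the selected cells, at 228 and 30.6 CPM.

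Of 36 measured transcription factors, 7 were higher in FA by at least 2-fold and 3 lower, beside 9.14% and 7.23% of all genes. Runx1 was at 105 CPM in control and 264 in FA, and Nfil3, needed for the type 1 dendritic lineage, at 7.74 and 61.6 CPM. Batf was at 13.9 and 58.4 CPM and Cebpb at 27.9 and 96.2, although 55.6% of the control Cebpb UMIs lay in 1 cell. Spi1, which encodes the myeloid factor PU.1, was at 369 and 659 CPM. Cebpa was lower, at 94.5 and 27.0 CPM. Klf4, a factor of the type 2 lineage, was at 782 and 459.8 CPM, and Zeb2 at 339 and 233.

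Immediate early and heat shock genes, which tissue dissociation can also induce, were for the most part close between libraries. Of 37 measured, 6 were at least 2-fold higher and 3 lower, against 9.14% and 7.23% of all genes. Fos was at 3769 CPM in control and 4895 in FA, Jun at 3825 and 3409, and Egr1 at 858 and 847. Genes of the unfolded protein response, which relieves stress in the endoplasmic reticulum, were higher in part: 5 of 14 measured passed 2-fold, beside 9.14% of all genes, and 0 were lower, with a median log2 ratio of 0.93. The chaperone gene Hspa5 was at 527 and 1322 CPM, a ratio of 2.51 (2.24 to 2.82), and Creld2 was at 23.2 and 90.3 CPM. Hspa5 was at least 2-fold higher in 6 of the 6 other classes too.

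Nuclear and mitochondrial genes of energy metabolism stood apart. Of 42 measured nuclear genes of the respiratory chain, 0 were at least 2-fold higher or lower, with a median log2 ratio of 0.02. All 12 measured mitochondrially encoded genes were at least 2-fold lower in FA, with a median log2 ratio of -3.52. The median cell had a mitochondrial share of 0.354% in control and 0.70% in FA, the other direction from the summed levels. When barcodes above 20% mitochondrial share were left out, 8 of them in control and 1 in FA, the list's median less that of all genes went from -3.63 to -2.16, and mt-Atp8 turned to a log2 ratio of 0.16. Of 17 measured genes of glycolysis and hypoxia, 3 were at least 2-fold higher, Pfkp, Hk2 (46.5 and 98.4 CPM) and the glucose transporter gene Slc2a1 (18.6 and 49.0 CPM), and 0 were lower. Ldha was at 238 and 452 CPM.

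Gasdermin and inflammasome genes are given for their place in inflammatory cell death. Gsdmd, a pore-forming effector of pyroptosis, was at 38.7 CPM in control and 49.4 in FA, with an interval of the ratio from 0.821 to 2.06. Casp1 was at 55.8 and 57.1 CPM. The sensor Nlrp3 was at 23.2 and 102 CPM, a ratio of 4.39 (2.61 to 7.98), and the adaptor Pycard at 156 and 420 CPM. The necroptosis sensor Zbp1, also interferon-inducible, was at 23.2 and 96.6 CPM. Of 19 measured genes of this list, 5 were at least 2-fold higher and 2 lower, beside 9.14% and 7.23% of all genes. The lower members were Il18 and Mefv.

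Other fixed lists held further differences. All measured genes had 9.14% at least 2-fold higher and 7.23% lower. Of 17 measured markers of type 2 dendritic cells outside the rule, 5 were at least 2-fold higher and 4 lower, among them Cd7 (18.6 and 86.8 CPM) and Irf4. Of 6 measured markers of mature dendritic cells, 4 were at least 2-fold higher and 0 lower, Ccl22, Cd63, Il4i1 and Samsn1. The median log2 ratio of the 6 was 1.37, above the 1.30 of the interferon-stimulated list. Ccl22 had 5 UMIs in control and 90 in FA, of which 78 lay in the 73 FA cells with a Ccl17 UMI. Ccl17 is a gene of the rule, so the Ccl22 call and this median can carry the selection. Of 15 measured genes of lipid handling and repair, 4 were at least 2-fold higher and 2 lower. Fabp5, which carries fatty acids inside the cell, was at 4.65 CPM in control and 116 in FA. Spp1, at 75.9 and 2939.7 CPM, was also found in most FA B cells, so its level here is not read as expression.

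**Figure D3:**
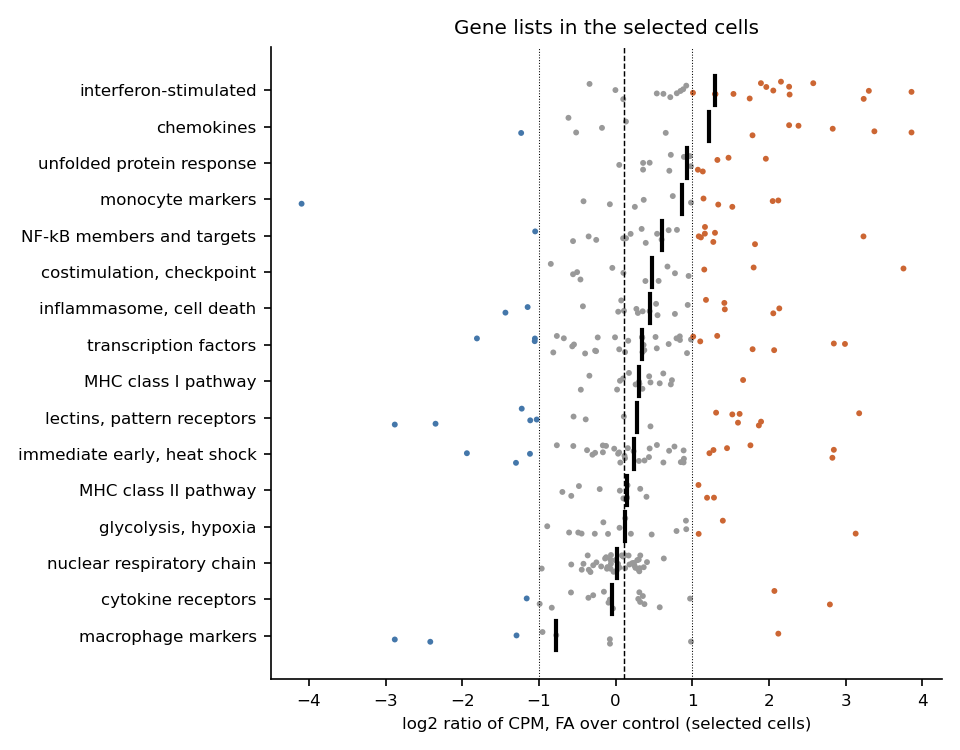
Each point is 1 measured gene of the named list, on the log2 ratio of CPM, FA over control, in the selected cells; orange points are at least 2-fold higher, blue points at least 2-fold lower. Black bars are medians of the lists drawn, from 1.30 for interferon-stimulated genes to -0.77 for macrophage markers. The dashed line is the median of 5545 measured genes, 0.11. Lists not drawn lay outside this range, such as mature dendritic cell markers (1.37) and mitochondrially encoded genes (-3.52).

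The FA cells varied among themselves. The 73 cells with a Ccl17 UMI and the 203 without, which had median depths of 7978 and 7465 UMIs, are compared here as a description, because the split was chosen after the data were seen. Ccl17 is also a gene of the rule, and 24 FA cells were selected only through it, so the 2 sets were chosen differently and every value below can carry that difference. Cells with Ccl17 had more Ccl22, the other CCR4 ligand, at 125 CPM (98.9 to 156) against 7.49 (3.87 to 13.1). They also had more Mgl2, at 879 CPM against 203, and 47 of the 101 FA cells with Mgl2 carried Ccl17. The receptor kinase gene Axl was at 109 and 26.8 CPM, the actin-capping gene Capg at 599 and 203, Tnf at 162 and 53.1, and Cxcl16 at 257 and 96.2. Ccr7 was at 86.7 and 15.6 CPM, but 46.8% of all its UMIs in FA cells lay in 1 cell.

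Cells without Ccl17 had more of another set. Ifitm1 was at 202 CPM in cells with Ccl17 and 1058 in cells without, Plac8 at 265 and 938, and Ifitm6 at 56.2 and 190. Cd7 had 3 UMIs in 1.37% of cells with Ccl17 and 190 UMIs in 32.5% of cells without. Ffar2 was at 64.2 and 146 CPM, and Tspan13 at 70.6 and 190. Of the other selecting genes, Cd209a was at 359 CPM with Ccl17 and 526 without, and Clec10a at 469 and 366, values that describe the rule. The dendritic lineage receptor Flt3 was at 20.9 CPM (11.1 to 35.7) with Ccl17 and 47.5 (37.4 to 59.4) without. Some genes were close on both sides: Zbtb46 was at 53.0 and 52.5 CPM, Il1b at 2877 and 2874, and Ccr2 at 432 and 461.

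**Figure D4:**
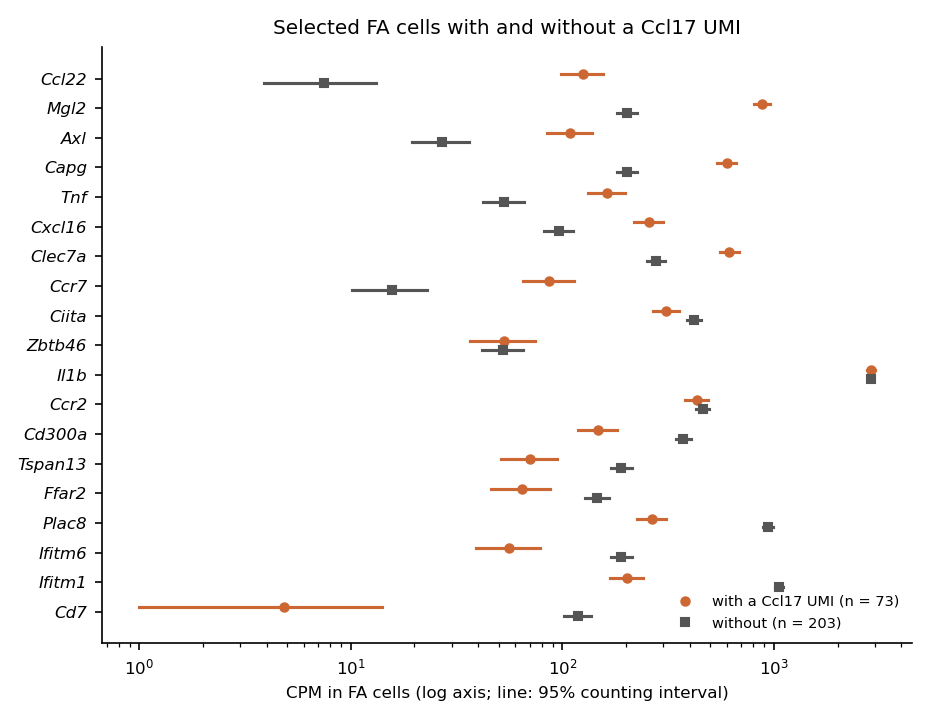
CPM of named genes (log axis) in the 276 selected FA cells, divided into 73 cells with a Ccl17 UMI (orange circles) and 203 without (grey squares), with 95% counting intervals. Ccl22, Mgl2, Axl, Capg, Tnf and Cxcl16 lie to the right in cells with Ccl17, Ifitm1, Plac8, Ifitm6, Cd7 and Ffar2 in cells without, and Il1b and Zbtb46 coincide.

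Summed over the selected cells, marker lists of other cell types were well below their levels in the cell types themselves. Single barcodes could hold much more. Of the immunoglobulin light chain Igkc, 1 FA cell held 8681 of the 8717 UMIs in selected FA cells. In control, 1 cell held 2928 of 2969. The T cell list reached 2 or more UMIs in 3 of 69 control and 20 of 276 FA cells, with summed levels of 79.0 and 105 CPM against 6947 and 6147 CPM in T cells. The B cell list reached 2 or more UMIs in 33 control and 39 FA cells, at 311 and 116 CPM against 7522 and 6749 in B cells. The proximal tubule list reached 2 or more UMIs in 34 control and 95 FA cells, with a median of 1 UMI per cell in both, and stood at 2283 CPM in control and 869 in FA, against 54512 and 29850 in proximal tubule cells. Neutrophil and natural killer lists were near 0, at 4.65 and 4.94 CPM and at 9.29 and 10.3 CPM, with Ly6g, Ncr1 and Klrb1c at 0 UMIs in both libraries. In all, 5 control and 11 FA cells carried at least 2 lymphocyte UMIs or 10 tubule UMIs of the marker genes used as a doublet check. The endothelial list had 188 UMIs in control, 179 of them in 1 cell, and 63 in FA. Without the cells of the doublet check, 287 genes were at least 2-fold higher and 114 lower.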

How the data were processed

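Single-cell suspensions of kidney were captured in droplets, per the labels' protocols, and the authors deposited 1 matrix of UMI counts, 21855 genes by 28678 barcodes, checked to be whole numbers. The submitters' processing notes name Seurat and mm10; no source used here names the aligner or counter. Each barcode was placed in a library by the start of their names; that the start C3 is control rests on a letter, not on a stated key. The libraries used different gene name versions, and 254 pairs of names were joined through RefSeq synonyms. UMIs of a class were added up in each library and expressed as CPM. Sums have exact Poisson intervals, shares exact Clopper-Pearson intervals and ratios exact conditional binomial intervals, all at 95% and for counting error only. The members and the gene lists were chosen with earlier results of these data known. Named genes were the 12 highest and 12 lowest ratios at a mean of at least 100 CPM, without mitochondrial, ribosomal protein, haemoglobin, immunoglobulin, sex-linked and numbered predicted genes, selecting genes, marker genes of other cell types and genes below 10% of the highest class, and up to 8 genes per list by mean CPM; many further list genes below those 8, such as Creld2, Il4ra, Nlrp3 and Cd274, and the genes compared by Ccl17, fall outside that rule and were chosen with their values known. No doublet caller was run; barcodes with genes of other lineages and barcodes above the 98th percentile of UMIs were left out as alternatives. Ratios and intervals were tested on simulated Poisson counts, the model that the intervals assume. That check covers the code and cannot speak to UMIs clumped in single cells. Thinning used 1 seeded draw and left out 1 control and 0 FA members and 2 and 3 B cells. Python 3.11.15, numpy 2.4.6, scipy 1.17.1 and pandas 2.3.3 were used.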

Additional observations from a re-analysis of the deposited data

Results flagged for a closer look

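Tnip3, an inhibitor of NF-kB signalling, was lower in FA in the selected dendritic cells and higher in FA in C1q macrophages, with log2 ratios of -1.05 and 2.11. Its level went from 1101 to 532 CPM in the dendritic cells and from 76.8 to 331 CPM in the macrophages. Without the barcode richest in Tnip3 in each library, the dendritic cell value was -0.96, under 2-fold. Type 1 dendritic cells, 11 in control and 9 in FA, were also lower in FA, with 30 and 3 UMIs. Ly6c2 monocytes, 23 and 684 cells, were higher, with 1 and 469 UMIs (6.44 and 102 CPM). Each direction rests on 1 library per group, and the difference between the cell classes was not tested.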

How the results depend on the processing

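The FA share of 1.73% moved beyond its counting interval with other limits: it was 2.21% at 2 or more UMIs of the selecting genes, 1.16% at 5 or more, 1.27% with a Cd209a UMI required, 1.99% with a mitochondrial share of at most 20%, 1.97% at 1000 or more UMIs and 0.385% after thinning, when the control share was 0.297%. At 1000 or more UMIs the same 276 FA cells were selected, and at a mitochondrial share of at most 20% 275 of them. Those shares therefore rose because fewer barcodes were kept. For the other limits the cause was not tested, apart from thinning, which lowers every count. Genes at least 2-fold higher and lower, 264 and 123, were 166 higher with the median ratio set to 1, 228 lower with mitochondrial and ribosomal protein genes out of the total, 657 and 245 at 1.5-fold, 507 and 401 at a mean of at least 20 CPM, and 61 and 25 at 200. Each count stayed within 1.5 times its main value in 14 of 18 alternatives. The chemokine list, less the median of all genes, went from 1.11 to -0.080 when a Cd209a UMI was required, which leaves fewer cells with Ccl17. mt-Atp8 turned from lower to a log2 ratio of 0.16 with a mitochondrial share of at most 20%. For 24 genes with the highest and lowest ratios, 368 of 381 alternative values lay in the counting interval, 13 lay outside and 0 changed sign; 1 was under 2-fold, Zbtb20 at -0.99 without barcodes of very high UMIs. The interferon-stimulated list, less the median of all genes, ranged from 1.04 to 1.71 over the alternatives. No replicate could be left out. With 69 control cells, genes under about 20 CPM rest on few UMIs.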
